A study of Mus musculus with 4 samples.

Results

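The IL-1, IL-18 and IL-33 axis was examined in salivary glands (SGs) of mice that lack Myd88. The axis was taken as 10 genes, picked by gene symbol among the 34844 gene names on the array: the cytokines Il1a, Il1b, Il18 and Il33, the antagonist Il1rn, and the receptor genes Il1r1, Il1r2, Il1rap, Il18r1 and Il1rl1. They are represented by 15 of the 55681 probes, and every probe is described here. Myd88-KO and Wildtype SGs were each measured on 2 Agilent whole mouse genome arrays. The labels give both groups as female C57/BL6 mice aged 10 weeks and the tissue as submandibular and sublingual glands. The Myd88-KO mice are labelled Myd88-null, and according to the methods they are a Myd88-deficient strain rather than a deletion in chosen cells. According to the methods, both genotypes were bred from heterozygous parents, and lymph nodes, fat and connective tissue were trimmed from the glands. The labels do not say whether an array holds 1 animal or a pool, and the p-values below measure only the spread between these samples.

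Cytokines of the IL-1 family act through paired receptor chains with an intracellular TIR domain. IL-1α and IL-1β bind IL1R1, IL-18 binds IL18R1 and IL-33 binds ST2, the product of Il1rl1; IL1RAP is the shared second chain for IL-1 and IL-33. The assembled receptors recruit MyD88, which brings in the IRAK kinases and TRAF6 and leads to NF-κB activation. IL1RN occupies IL1R1 without signalling, and IL1R2 is a decoy that lacks the TIR domain. IL-1β and IL-18 are made as precursors that caspase-1 cuts in inflammasomes. IL-33 is stored in the nucleus of epithelial, stromal and endothelial cells and is released on damage. In mucosal and glandular tissue, IL-18 is made by epithelial cells and macrophages.

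The array probes are 60 bases long and carry the sense sequence of their transcript. The sequences below are shown because they state what was measured for Il18, for both extracellular inhibitors of IL-1 and for the second probe of the IL-18 receptor gene, which was read above background on 1 array of each genotype. Positions are those of the array files (NCBI37/mm9), and capitals mark a stop codon that ends a forward reading frame that is open from the start of the probe.
Il18, chr9:50389761-50389820, plus strand: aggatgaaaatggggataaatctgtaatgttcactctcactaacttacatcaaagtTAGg
Il1rn, chr2:24205094-24205153, plus strand: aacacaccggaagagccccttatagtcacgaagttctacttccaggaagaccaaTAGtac
Il1r2, chr1:40180014-40180073, plus strand: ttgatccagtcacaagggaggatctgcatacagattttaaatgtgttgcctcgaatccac
Il18r1 (second probe), chr1:40537851-40537910, plus strand: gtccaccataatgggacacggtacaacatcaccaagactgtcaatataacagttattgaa
The Il18 probe starts at base 684 of its transcript, with the stop codon at probe bases 57 to 59. The Il1rn probe starts at base 562, with the stop codon at probe bases 55 to 57. The Il1r2 probe, at base 1062, and the second Il18r1 probe, at base 1010, hold no stop codon in at least 1 forward frame.

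Values are log2 signals relative to the 75th percentile of the same array, so a value of 0 is the 75th percentile. "Well above background" is a flag that the scanner software sets for each spot. For a gene to be tested, both arrays of a genotype had to carry this flag for its probe. Myd88-KO arrays 1 and 2 had 52.2% and 68.4% of probes well above background, and Wildtype arrays 1 and 2 had 74.1% and 55.1%, so dim genes were read less well on Myd88-KO array 1 and Wildtype array 2. No spot was saturated. The Myd88 probe, at chr9:119245322-119245381 and base 1629 of its transcript, read 1.51 and 1.41 on the Myd88-KO arrays and 1.15 and 1.07 on the Wildtype arrays. It was thus no lower on the Myd88-KO arrays (log2 difference 0.35, SE 0.11, limma adjusted p = 0.264). Which part of the gene is deleted is not given in the sources used here, so the labels could not be checked with this probe.

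Of the 10 genes, 8 had a tested probe, and each of those 8 probes was well above background on all 4 arrays. On the Myd88-KO arrays, 3 of the 8 were lower (Il18, Il18r1 and Il1rl1) and 5 were higher (Il1b, Il33, Il1r1, Il1r2 and Il1rap). No gene of the axis passed an adjusted p under 0.05 in limma (smallest 0.233, for Il18), nor did any of the 22312 genes tested (0% called, smallest adjusted p 0.194). Il18 alone had an unadjusted p under 0.05, 1 of 8, against 16.7% of all genes tested. The arrays of the genotypes did not overlap for 5 of the 8 genes, against 52% of all genes. The 3 that lay lower compare with 18.7% of all genes, and the 2 that lay higher, Il1b and Il33, with 33.2%. The median difference was 0.12 over the 8 genes and 0.06 over all genes tested. With 2 arrays against 2, an exact two-sided permutation test of a single gene cannot go below p = 0.333.

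**Figure D1:**
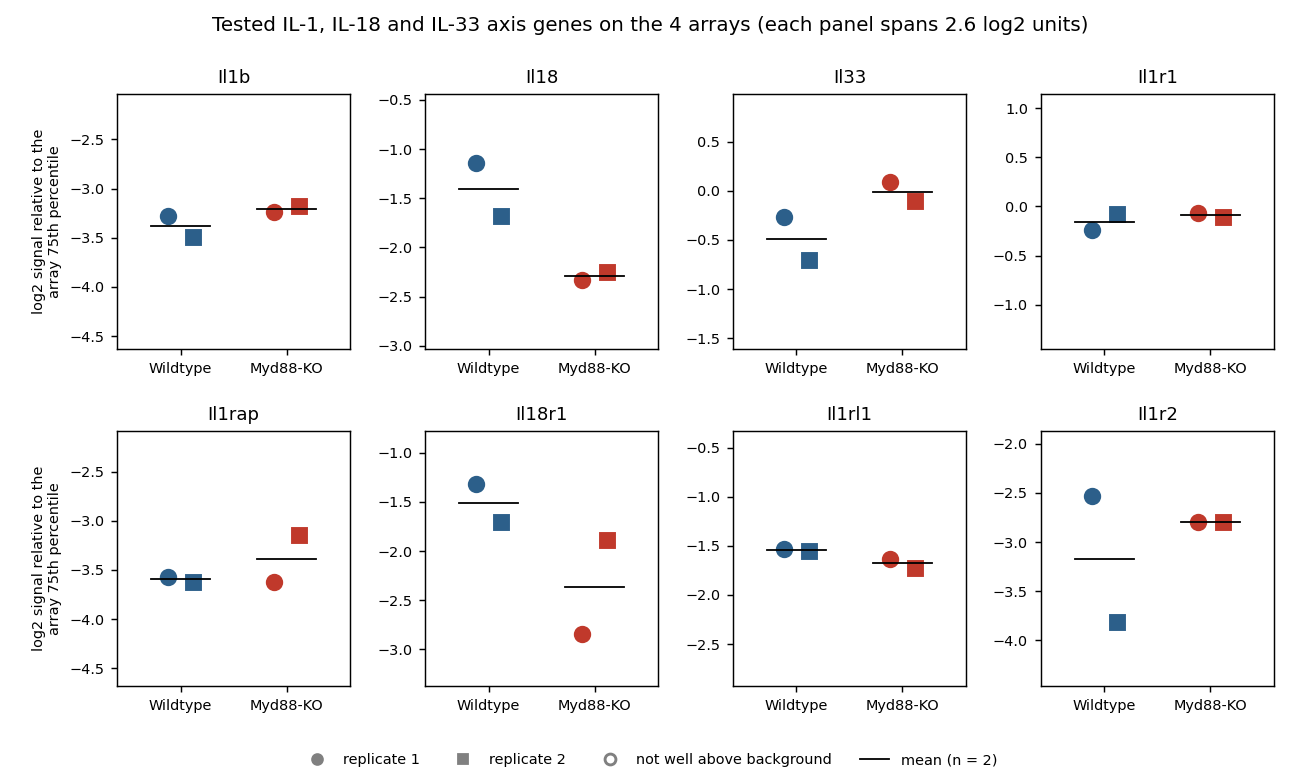
The log2 signal relative to the array's 75th percentile is plotted for the 8 tested genes on the 2 Wildtype (blue) and 2 Myd88-KO (red) arrays; circles are replicate 1, squares replicate 2 and black lines the group means, and every panel spans the same log2 range on its own axis. Il18 lies at -2.33 and -2.25 on the Myd88-KO arrays, below both Wildtype arrays, whereas the Il1r1 arrays of the genotypes interleave.

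Il18, the cytokine made as a caspase-1 substrate, lay lower on the Myd88-KO arrays. It read -2.33 and -2.25 on the Myd88-KO arrays and -1.14 and -1.68 on the Wildtype arrays. Both Myd88-KO arrays were lower than both Wildtype arrays, and the Myd88-KO arrays lay closer to each other than the Wildtype arrays did. The group means were -2.29 ± 0.06 and -1.41 ± 0.38 (SD, n = 2). The log2 difference was -0.88 (SE 0.22, 95% interval -1.51 to -0.25), which is 1.84-fold lower. The unadjusted p was 0.0189 and the adjusted p 0.233 in limma, and the exact two-sided permutation p was 0.333. A larger difference in either direction was found in 5.98% of all genes tested. Without Myd88-KO array 1 the unadjusted p was 0.0754, and without Myd88-KO array 2 it was 0.0607. With normexp background correction the difference was -0.38, with an unadjusted limma p of 0.0273. That correction adds an offset of 50 to each signal, which by construction makes log2 differences of dim probes smaller. The Il18 signals were 50.9 and 49.9 on the Myd88-KO arrays and 146 and 83.9 on the Wildtype arrays.

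The genes whose 4 values were most like those of Il18, among 20493 candidates well above background on all arrays, were Colec11, Snn and Cd48. Colec11 encodes a collectin of innate immunity and Cd48 a surface protein of leukocytes. Their root mean square distance from Il18, after each gene was centred on its own mean over the 4 arrays, was 0.03 log2 units for each of Colec11, Snn and Cd48. With 4 arrays, this is a description only.

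The IL-18 receptor gene has 2 probes, of which 1 was tested. The tested Il18r1 probe, at chr1:40557541-40557600 and base 3999 of its transcript, read -2.84 and -1.89 on the Myd88-KO arrays and -1.31 and -1.70 on the Wildtype arrays. Both Myd88-KO arrays were lower, though Myd88-KO array 2 lay near Wildtype array 2. The log2 difference was -0.86 (SE 0.39, 95% interval -1.96 to 0.25, limma adjusted p = 0.371). It was -0.38 without Myd88-KO array 1 and -1.33 without Myd88-KO array 2, and -0.35 with normexp correction.

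The second Il18r1 probe, whose sequence is given above, read -4.90 and -3.43 on the Myd88-KO arrays and -3.74 and -5.48 on the Wildtype arrays. It was well above background only on Myd88-KO array 2 and Wildtype array 1, so it was not tested. Its values overlapped between genotypes, and it gives no difference to set beside that of the tested probe.

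Markers of lymphocytes, which carry IL18R1 when they are T or NK cells, moved in the same direction as Il18 and Il18r1. Of 14 T and NK cell markers, 11 were tested and 11 were lower on the Myd88-KO arrays, from -4.45 for Cd3d to -0.04 for Cd4. Their summed signal, in multiples of the 75th percentile, was 15.4 to 16.1 on the Myd88-KO arrays and 21.6 to 28.3 on the Wildtype arrays. Of 10 B cell markers, 8 were tested and 8 were lower, with sums of 3.87 to 4.01 against 11.1 to 18.7. The paper's flow cytometry, on submandibular glands of male mice, went the other way, with more B cells in Myd88-deficient mice. Each marker of both lists was well above background on at least 1 array, but the B cell marker Ms4a1 on neither Myd88-KO array. Cd3d was not well above background on Myd88-KO array 1.

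Markers of macrophages, a source of IL-18, were lower for 7 and higher for 7 of the 14 tested, with sums of 44.1 to 49.1 on the Myd88-KO arrays and 41.3 to 53.7 on the Wildtype arrays. The gland's own markers were lower for 4 and higher for 8 of 12, with sums of 7744 to 8359 against 6368 to 6817. Markers of tissue beside the gland were lower on the Myd88-KO arrays too. Skeletal muscle markers were lower in 9 of 9 tested genes (sums 2.96 to 2.99 against 22.4 to 127), and adipocyte markers in 9 of 9 (181 to 278 against 388 to 391), with Lep well above background on no array. The part of these tissues and cells in the Il18 and Il18r1 values was not tested. In whole glands, fewer cells of a type and less RNA per cell cannot be told apart.

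Il33 lay higher on the Myd88-KO arrays. Its probe, at chr19:30035101-30035160 and base 2450 of its transcript, read 0.09 and -0.10 on the Myd88-KO arrays and -0.26 and -0.71 on the Wildtype arrays. The genotypes did not overlap, with 0.17 log2 units between Myd88-KO array 2 and Wildtype array 1. The log2 difference was 0.48 (SE 0.20, 95% interval -0.09 to 1.05, limma adjusted p = 0.346), or 1.39-fold. It was 0.26 without Wildtype array 2 and 0.70 without Wildtype array 1. Endothelial markers, of cells that can store IL-33, were lower for 7 and higher for 3 of 10, with sums of 39.8 to 43.2 on the Myd88-KO arrays and 34.6 to 43.0 on the Wildtype arrays. The Kdr probe gave 45.1% to 61.9% of these sums, and without it they were 16.2 to 16.4 against 17.8 to 19.0. Of the 10, 5 did not overlap on the lower side and 1 on the higher side, against 18.7% and 33.2% of all genes tested. Among the lower ones was Cdh5, a junction protein of endothelium, at -0.64 (limma adjusted p = 0.203). The markers Emcn and Tek were higher, at 0.36 and 1.135 (limma adjusted p = 0.247 and 0.449). Fibroblast markers were lower for 9 of 10, with sums of 141 to 146 against 160 to 177, and the part of both cell types in the Il33 value was not tested.

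The receptor of IL-33 gave a clear signal at 1 of its 3 probes. Il1rl1 encodes both membrane-bound ST2 and a shorter soluble form that captures IL-33. The probe near the 3′ end of the long transcript, at chr1:40522187-40522246 and base 4998, read -1.63 and -1.73 on the Myd88-KO arrays and -1.53 and -1.55 on the Wildtype arrays. The Myd88-KO arrays were lower, by a log2 difference of -0.14 (SE 0.10, 95% interval -0.43 to 0.15, limma adjusted p = 0.555).

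The other long-form probe, at chr1:40520014-40520073 and base 2825, read -6.20 and -6.24 on the Myd88-KO arrays and -6.13 and -6.56 on the Wildtype arrays. The probe of the soluble form, at chr1:40504769-40504828 and base 2563, read -6.11 and -6.16 against -6.89 and -6.47. Neither was well above background on any array. The long-form signal thus rests on the probe at base 4998 alone, and these arrays give the soluble form only an upper bound and no difference. Mast cell markers, of cells that carry ST2, were lower for 4 and higher for 3 of 7 tested, and Ms4a2 and Tpsab1 were well above background on no array.

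**Figure D2:**
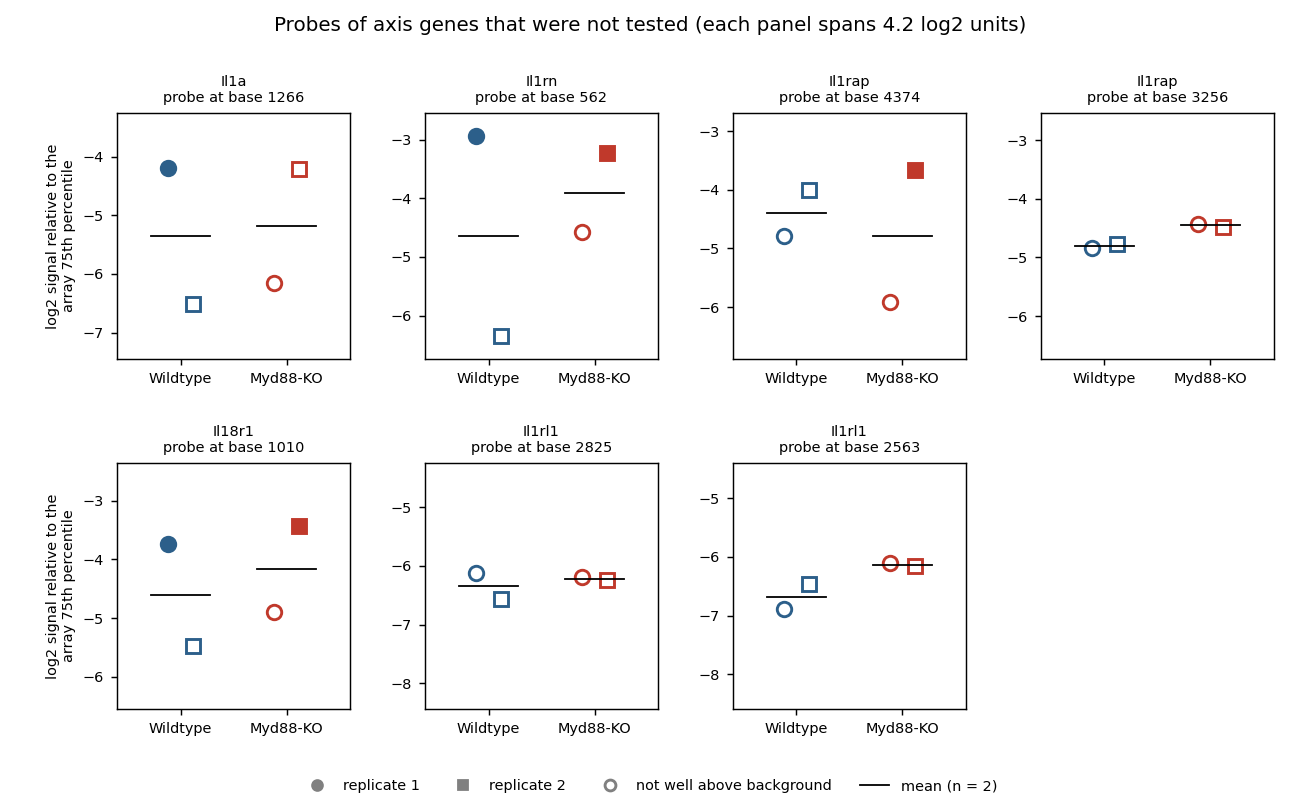
The log2 signal relative to the array's 75th percentile is plotted for the 7 probes of axis genes that were not tested, with Wildtype arrays in blue and Myd88-KO arrays in red, replicate 1 as circles, replicate 2 as squares and black lines for means; open symbols are arrays on which the probe was not well above background. Il1rn and the second Il18r1 probe have filled symbols only on Myd88-KO array 2 and Wildtype array 1, and 3 probes have none.

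Of the IL-1 cytokines, Il1b was read above background on every array and Il1a on 1. The Il1b probe, at chr2:129190347-129190406 on the minus strand, is printed in 10 spots. It read -3.24 and -3.17 on the Myd88-KO arrays and -3.27 and -3.49 on the Wildtype arrays, with an SD between spots of 0.13 to 0.29. Both Myd88-KO arrays were higher, but Myd88-KO array 1 and Wildtype array 1 were nearly level. The log2 difference was 0.18 (SE 0.13, 95% interval -0.18 to 0.54, limma adjusted p = 0.537), and it was 0.05 after quantile normalization and 0.29 without Wildtype array 1. Neutrophil markers, of a cell type that makes IL-1β, were lower for 7 and higher for 2 of 9 tested, with sums of 161 to 171 on the Myd88-KO arrays and 155 to 186 on the Wildtype arrays. The Csf3r probe gave 96.4% to 97.4% of these sums. Of the 9, 5 did not overlap on the lower side and 1 on the higher side, against 18.7% and 33.2% of all genes tested. The calcium-binding proteins S100a8 and S100a9 differed by -1.54 and -1.45 (limma adjusted p = 0.323 and 0.296). The markers Elane and Ctsg were higher, at 0.20 and 0.32 (limma adjusted p = 0.550 and 0.687). Mpo, the granule peroxidase, was well above background on neither Myd88-KO array. In the main fit it was at least 1.46-fold lower, by the bound described for Mefv below. Other background corrections can give a smaller difference than such a bound. S100a8 and Mpo met the detection filter through the Wildtype arrays alone, which favours a lower sign, and both are among the 5. The part of neutrophils in the Il1b value was not tested.

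Il1a, at chr2:129125994-129126053 on the minus strand, read -6.15 and -4.21 on the Myd88-KO arrays and -4.20 and -6.51 on the Wildtype arrays. It was well above background only on Wildtype array 1 and was not tested. The 2 higher readings came from the 2 arrays with the larger shares of detected probes, 1 of each genotype.

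Of the inhibitors of IL-1, Il1r2 was tested and Il1rn was not. Il1rn, the receptor antagonist whose probe sequence is given above, read -4.58 and -3.24 on the Myd88-KO arrays and -2.94 and -6.35 on the Wildtype arrays. It was well above background on Myd88-KO array 2 and Wildtype array 1 only, so it was not tested. The decoy receptor Il1r2 read -2.79 and -2.80 on the Myd88-KO arrays and -2.53 and -3.81 on the Wildtype arrays. The Myd88-KO arrays lay between the Wildtype arrays. Its log2 difference was 0.37 (SE 0.48, 95% interval -0.99 to 1.74, limma adjusted p = 0.740), and Wildtype array 2 set the sign, since without it the difference was -0.27 and without Wildtype array 1 it was 1.01.

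The receptor chains of IL-1 overlapped between the genotypes. Il1r1, the chain that binds the cytokine, at chr1:40372667-40372726, read -0.06 and -0.11 on the Myd88-KO arrays and -0.24 and -0.07 on the Wildtype arrays. The genotypes overlapped, and the log2 difference was 0.07 (SE 0.11, 95% interval -0.25 to 0.39, limma adjusted p = 0.792).

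Il1rap, the shared second chain, has 3 probes. The tested one, at chr16:26701498-26701557, lies in the transcript of the soluble form and read -3.62 and -3.15 on the Myd88-KO arrays and -3.57 and -3.62 on the Wildtype arrays. Myd88-KO array 2 stood above the other arrays, and the log2 difference was 0.21 (SE 0.20, 95% interval -0.35 to 0.78, limma adjusted p = 0.639). Without Myd88-KO array 2 it was -0.02. The probe of the membrane form, at chr16:26716515-26716574, read -4.43 and -4.47 against -4.84 and -4.77 and was well above background on no array. The third probe, at chr16:26725291-26725350, read -5.91 and -3.67 against -4.78 and -4.01 and was well above background on Myd88-KO array 2 alone. The form of Il1rap that carries the signal was therefore not measured above background on both arrays of either genotype.

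**Figure D3:**
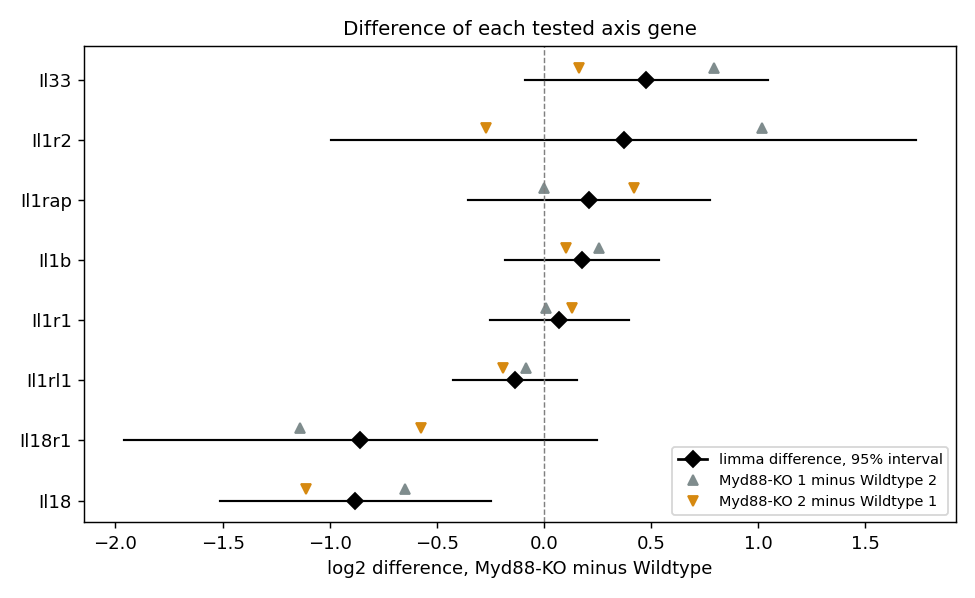
The log2 difference of Myd88-KO minus Wildtype is plotted for each of the 8 tested genes as a diamond with its 95% interval from limma; triangles are the differences within the pairs of arrays that had similar shares of detected probes (Myd88-KO 1 with Wildtype 2, and Myd88-KO 2 with Wildtype 1). Only the interval of Il18, -1.51 to -0.25, leaves out 0, and its pairs gave -0.65 and -1.11.

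Arrays of different genotype but similar detection were also set against each other. For Il18 the difference was -0.65 between Myd88-KO array 1 and Wildtype array 2, and -1.11 between Myd88-KO array 2 and Wildtype array 1. For Il18r1 these were -1.14 and -0.57, and for Il33 they were 0.79 and 0.17. Since the arrays of these 3 genes do not overlap between genotypes, any pairing gives a single sign, and the pairs show only how far the size varied.

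Genes that act around the axis were read from 4 lists. The first holds relatives in the IL-1 family, of which 3 of 11 on the array were tested and 3 were lower on the Myd88-KO arrays (median -0.36). Il1f5, an older name of Il36rn, encodes the antagonist of the IL-36 receptor. It read -3.74 and -4.07 on the Myd88-KO arrays and -2.55 and -2.11 on the Wildtype arrays, and it was not well above background on Myd88-KO array 2. The genotypes did not overlap, and the log2 difference was -1.57 (SE 0.22, limma adjusted p = 0.194). With normexp correction it was -0.35. The IL-36 cytokine genes Il1f6, Il1f8 and Il1f9 were well above background on no array.

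Il18bp, a secreted protein that neutralizes IL-18, read -0.51 and -0.78 on the Myd88-KO arrays and -0.14 and -0.44 on the Wildtype arrays, a log2 difference of -0.36 (SE 0.17, limma adjusted p = 0.403). Casp1, the protease that activates IL-18 and IL-1β, read -0.89 ± 0.16 against -0.40 ± 0.35 (SD, n = 2), a difference of -0.49 (SE 0.22, limma adjusted p = 0.369). In both genes the mean of the Myd88-KO arrays was lower. For both, all Myd88-KO arrays lay below all Wildtype arrays, as in 18.7% of all genes tested. The nearest arrays, Myd88-KO array 1 and Wildtype array 2, differed by only -0.07 for Il18bp and -0.13 for Casp1. These 2 genes were chosen for their role beside Il18 after their values had been seen.

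The second list holds inflammasome and cytokine-processing genes. Of 22 on the array, 17 were tested, 9 lower and 8 higher, with a median of -0.01. The upper end of the list was Nlrp6, an epithelial inflammasome sensor, at 1.11, which was not well above background on Wildtype array 2 (limma adjusted p = 0.586). An unadjusted p under 0.05 was found for 4, and all 4 were lower: Mefv, Naip6, Gsdmd and Nlrp1a, against 6.83% of all genes tested. Of these, Mefv and Naip6 met the detection filter through the Wildtype arrays alone. That filter favours a lower sign for such genes, so the count cannot be read as a result about the list. With normexp correction, Naip6 was at -0.027 and Mefv at -0.34, with unadjusted p of 0.827 and 0.0773. Gsdmd, the pore-forming protein through which mature IL-1β and IL-18 leave the cell, read -0.64 and -0.50 on the Myd88-KO arrays and 0.09 and -0.23 on the Wildtype arrays (difference -0.50, SE 0.16, limma adjusted p = 0.273). Mefv, which encodes the inflammasome sensor pyrin of myeloid cells, was well above background on neither Myd88-KO array. It was so on both Wildtype arrays, at -2.40 and -3.83, which lay far apart. The limma adjusted p was 0.233, and it ran from 0.00414 with median scaling to 0.539 with no filter on dim probes. The value with median scaling takes no account of the distance between the Wildtype arrays, as described in the closing section. In the main fit Mefv was at least 1.85-fold lower, but its normexp difference given above was smaller than this bound. That bound sets the mean of the Wildtype arrays against the lowest signal among probes well above background, or the probe's own where higher, on the Myd88-KO arrays. Naip6, a sensor of bacterial proteins with close paralogues, differed by -0.78, and Nlrp1a, another sensor, by -0.29 (limma adjusted p = 0.245 and 0.285). Their values were -4.29 and -3.85 against -3.42 and -3.15 for Naip6, with Myd88-KO array 1 not well above background. Nlrp1a read 4.37 and 4.37 against 4.65 and 4.66.

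The adaptors and kinases between the receptors and NF-κB were all measured. Of 20 tested, 7 were lower and 13 higher (median 0.10), and every difference lay between -0.46 (Peli3) and 0.36 (Tab1). Tab1, a partner of the kinase TAK1, read 3.46 ± 0.01 on the Myd88-KO arrays and 3.11 ± 0.01 on the Wildtype arrays (SD, n = 2; difference 0.36, SE 0.10, limma adjusted p = 0.241). Tab1 and Myd88 were the genes of this list with an unadjusted p under 0.05, both higher, against 9.82% of all genes tested.

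Of 29 genes known as targets of these cytokines, 14 were tested, 8 lower and 6 higher (median -0.02). Another 11 were well above background on no array, among them Il6, Ptgs2, Ifng, Il5 and Il13. Cxcl1, a neutrophil-attracting chemokine, read -2.44 and -2.40 on the Myd88-KO arrays and -2.89 and -3.37 on the Wildtype arrays. It was higher on both Myd88-KO arrays (difference 0.71, SE 0.20, limma adjusted p = 0.251) and was the one target of 14 with an unadjusted p under 0.05, against 16.7% of all genes tested. The lowest difference was that of Vcam1, an adhesion molecule for leukocytes, at -0.86 (limma adjusted p = 0.358).

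**Figure D4:**
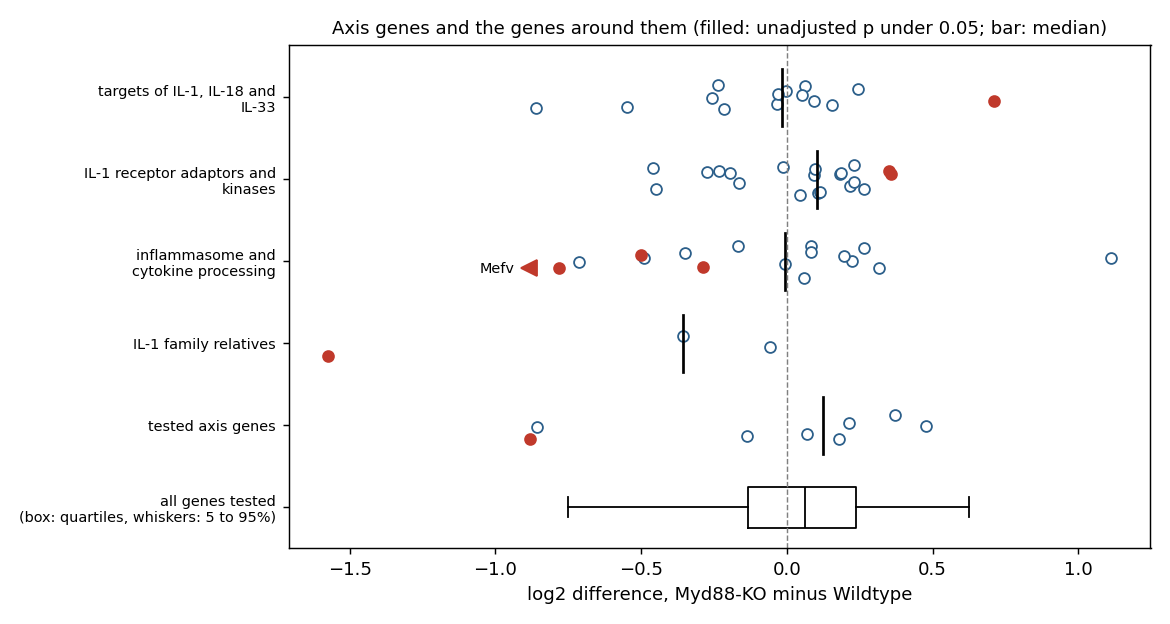
The log2 difference of Myd88-KO minus Wildtype is plotted for each tested gene of the axis and of the 4 lists around it, filled where the unadjusted limma p was under 0.05, with a bar at each median and, below, a box of the quartiles of all 22312 genes with whiskers at 5 and 95%. The triangle is Mefv at its bound of at least 1.85-fold lower in the main fit. Il1f5 lies at -1.57, and the 20 adaptors and kinases lie between -0.46 and 0.36.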

How the data were processed

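The authors hybridized Cy3-labelled cRNA from each sample to a 1-colour Agilent array and deposited the scanner output of Feature Extraction 10.7.3.1. The processed signal in it is a background-corrected intensity with no normalization between arrays. The deposited mean and background intensities and the flags were used as well, and gene names and probe positions (NCBI37/mm9) came from the same files. A series-wide table was left out, because its 4 columns of per-sample values could not be assigned to single samples.

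The log2 intensity, computed here from the deposited processed signal of 59305 non-control spots, was centred on the 75th percentile of each array. Outlier spots (99 to 131 an array) were left out, spots of 1 probe were averaged, and the brightest tested probe stood for a gene. A probe with several spots was well above background if the share of its spots with that flag exceeded 0.5. All 22312 genes tested were fitted in limma 3.58.1 (R 4.3.3; lmFit, eBayes). The threshold was a Benjamini-Hochberg adjusted p of 0.05. The fit was run after the procedure was tested on simulated arrays. Depth does not apply to arrays, and their number (2 a group) limits the precision. The paper's legends give n = 3 a genotype, which was not used.

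The genes of the axis and all lists were chosen with earlier results of these data known. Named genes are all 10 axis genes, Myd88, up to 4 genes of each list around the axis with an unadjusted p under 0.05, markers well above background on no array, the 3 genes most like Il18 and, where given, the ends of a list's range. Il18bp, Casp1 and the neutrophil and endothelial markers S100a9, Mpo, Csf3r, Elane, Cdh5, Kdr and Emcn lie outside this rule and were chosen after their values were seen. Alternatives numbered 16 planned and 1 added after seeing the data: normexp correction (offset 50), 4 other scalings, other filters and probe rules, other tests, replicate blocks, and each array left out in turn.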

Additional observations from a re-analysis of the deposited data

How the results depend on the processing

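Il18, Il18r1 and Il1rl1 kept a lower sign, and Il33 and Il1b a higher one, under all 17 alternatives, and no axis gene passed the adjusted threshold under any of them (adjusted p of Il18, 0.136 to 1.00). Signs turned for Il1rap without Myd88-KO array 2 (-0.025 to 0.45 with an array left out), Il1r1 without Wildtype array 1 (-0.012 to 0.15), Il1r2 without Wildtype array 2 (-0.27 to 1.01) and the median of all genes with cyclic loess (-0.017). Axis genes with an unadjusted p under 0.05 numbered 1, against 2 with normexp (Il18 and Il33), quantile, cyclic loess (Il18 and Il18r1 in both) and trended and robust moderation (Il18 and Il33), 0 with median scaling and with the methods' t-test, and 0 to 3 with an array left out. The 3 were Il18, Il33 and Il1r2 without Wildtype array 1. Over all genes, 0 passed the adjusted threshold, against 80 with normexp, 402 with median scaling, 482 with trended and robust moderation and 1 with the methods' t-test. Genes with an unadjusted p under 0.05 numbered 3715, against 995 with median scaling and 2192 to 3033 with an array left out. Of them 41.0% were lower, against 53.3% with the 75th percentile of detected probes, 75.9% with median scaling, 51.3% with quantile and 58.5% with cyclic loess. Of the 4 inflammasome genes with an unadjusted p under 0.05, Gsdmd and Nlrp1a kept it with normexp and Nlrp1a with the methods' t-test. Mefv passed the adjusted threshold with median scaling (0.00414). Under that scaling the limma p of the genes named here followed the size of the difference alone, whatever their spread. Il18 and Il18r1, at -0.93 and -0.91, had an unadjusted limma p of 0.0846 and 0.0928. The pass of Mefv thus ignores its Wildtype SD of 1.01, and the 402 genes came from the same fit. The size order of Il18 and Il33 turned without Wildtype array 1 (-0.61 and 0.70). The cause of these shifts was not tested.

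Same-numbered arrays share only a number (correlation of their deviations, -0.373 over genes). With the replicate number as a block, 2410 genes had an unadjusted p under 0.05, and Il18 remained the one of the axis. With crossed pairs as the block, added after seeing the data, 4157 did, 2 of them in the axis, and 0 passed the adjusted threshold.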
